A study of Sesuvium portulacastrum with 18 samples.

Results

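A set of 109 root transcripts of Sesuvium portulacastrum held a similar mean level before salt and after 8 h of salt and stood at 0.5 times that level or less after 24 h. The set was drawn from 87369 root transcripts in the deposited table of normalized CPM (CPM, each count as a share of its library, times 1 factor per library), against 176664 transcripts in the root and shoot tables together. A transcript was a member if its 0 h and 8 h means were each at least 5 normalized CPM, its 24 h mean was at most 0.5 times both, its 8 h mean lay between 0.667 and 1.5 times its 0 h mean, and each 24 h value lay below all 0 h and 8 h values. The 3 times therefore chose the members, so the levels and differences between these times are a description, and the test calls given below for the members support nothing about them.

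Sesuvium portulacastrum, sea purslane, is a halophyte, a plant that completes its life on saline ground. The 24 h and 8 h plants stood in medium with 250 mM NaCl for that long before harvest, and the 0 h plants were moved to fresh control medium and harvested at once. All were 15 days old at the change of medium, grew in hydroponic MS medium from stem cuttings taken from a natural stand, with light for 12 h a day, and gave 3 replicates per time. The labels do not say whether replicates were separate plants or pools, so spreads and tests cover only the variation between these libraries. Plants kept in control medium for 8 h or 24 h are not among the samples, so salt, age, hour of harvest and time since the change of medium cannot be told apart. Total RNA of roots was sequenced in 9 root libraries of the 18 in the series, with 8773677 to 13861135 estimated counts each. The IDs are not paired with gene names in the files used here, so no function, pathway or marker of root tissue can be given for them, and the tissue label could not be checked against markers.

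In plant roots, salt in the medium first lowers the water potential outside the cells, and sodium ions then build up inside them over a longer period. Halophytes are known for moving sodium into vacuoles and shoots and for keeping potassium in the cytosol while they do so. The level of a transcript reflects both its synthesis and its decay. In RNA from bulk roots, fewer cells of the type that carries a transcript and less of it per cell cannot be told apart.

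The rule narrowed the table in steps. The level minimum was met by 16612 root transcripts, of which 14028 also lay in the 8 h window. Of these, 120 had a 24 h mean at most 0.5 times both others, and 11 were then dropped because 1 or more 24 h values overlapped the earlier ones. Without the 8 h window the remaining conditions held for 150 transcripts, 20 with an 8 h mean under the window and 21 with one above it. In the plane of the 8 h and 24 h ratios other transcripts adjoined the members across each limit.

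**Figure D1:**
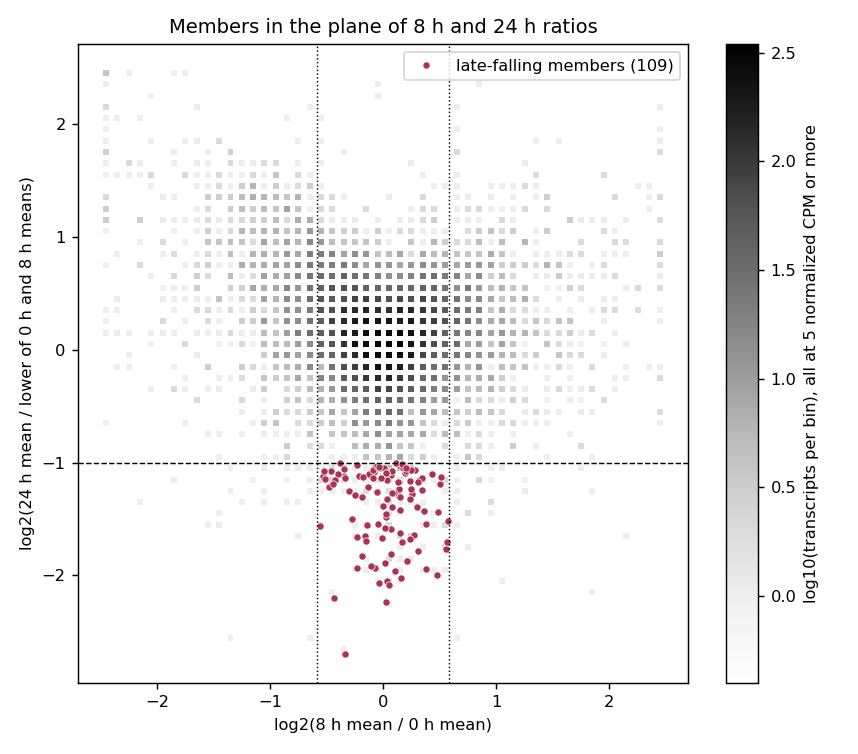
Each root transcript at 5 normalized CPM or more at 0 h and 8 h, placed by log2 of the 8 h over the 0 h mean (horizontal axis) and log2 of the 24 h mean over the lower of both (vertical axis); grey squares are bins shaded by log10 of their number of transcripts, with values beyond the axes placed in the edge bins, and red points are the 109 members. The dashed line marks the 0.5 limit and the dotted lines the 8 h window, and the members thin out downward from the dashed line to the lowest at a ratio of 0.155.

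The 24 h mean was a median 0.421 times the lower of the other means, with quartiles of 0.324 and 0.466 and a lowest ratio of 0.155. It was above 0.45 in 40 members, at most 0.333 times in 29 and at most 0.25 times in 7. The median over the 14028 transcripts at the level minimum and in the window was 1.07. No member was lost at 24 h: the lowest 24 h mean was 1.199 normalized CPM, and the smallest count of a member in a single 24 h library was 9.

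Nearest the limit on its inner side, R_Transcript_160179.p1 stood at 11.6 ± 2.01 normalized CPM at 0 h, 12.5 ± 0.762 at 8 h and 5.78 ± 1.02 at 24 h (mean ± SD, n = 3 at each time, as in all values of this form), a ratio of 0.4997. The next inside it were R_Transcript_30789.p1, at 12.9 ± 8.15, 9.94 ± 2.48 and 4.96 ± 1.90, and R_Transcript_334160.p1, at 8.53 ± 2.94, 9.56 ± 0.397 and 4.22 ± 0.749 normalized CPM at 0 h, 8 h and 24 h. Nearest outside was R_Transcript_60288.p1, at 21.7 ± 5.55, 18.9 ± 2.82 and 9.45 ± 1.05 normalized CPM at 0 h, 8 h and 24 h, a ratio of 0.5001. R_Transcript_380861.p1 followed at 5.54 ± 0.934, 5.40 ± 1.36 and 2.71 ± 0.832 (ratio 0.5007), and R_Transcript_27095.p1 at 23.6 ± 5.67, 27.0 ± 2.10 and 11.8 ± 1.73 normalized CPM at those times (ratio 0.501).

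The members spanned a wide range of abundance. Their mean over the 0 h and 8 h libraries ran from 5.30 to 415 normalized CPM with a median of 16.5, against a median of 22.6 over the transcripts at the level minimum and in the window. At least 100 normalized CPM was reached by 18 members, 33 lay from 20 to 100 and 58 lay under 20. By that mean, 9 members were among the 1000 most abundant root transcripts and 0 among the first 100, the best rank being 242. Members made up 1.14% of the transcripts of at least 100 normalized CPM in the window, 0.551% of those from 20 to 100 and 0.899% of those under 20. The median ratio of the 24 h to the lower earlier mean was 0.415, 0.413 and 0.441 in these bands from high to low.

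Summed, the members took 0.558 ± 0.0105% of each library's counts at 0 h, 0.582 ± 0.0802% at 8 h and 0.205 ± 0.0211% at 24 h. The single libraries held 0.556%, 0.549% and 0.569% at 0 h, 0.516%, 0.671% and 0.558% at 8 h, and 0.217%, 0.181% and 0.218% at 24 h (replicates 1 to 3 in each case). The 18 members of at least 100 normalized CPM accounted for 63.0% of the fall in the summed level. They held a like share of that level itself, 61.9% at 0 h and 59.9% at 24 h. The 8 members with the largest drops accounted for 41.6% of the fall.

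**Figure D2:**
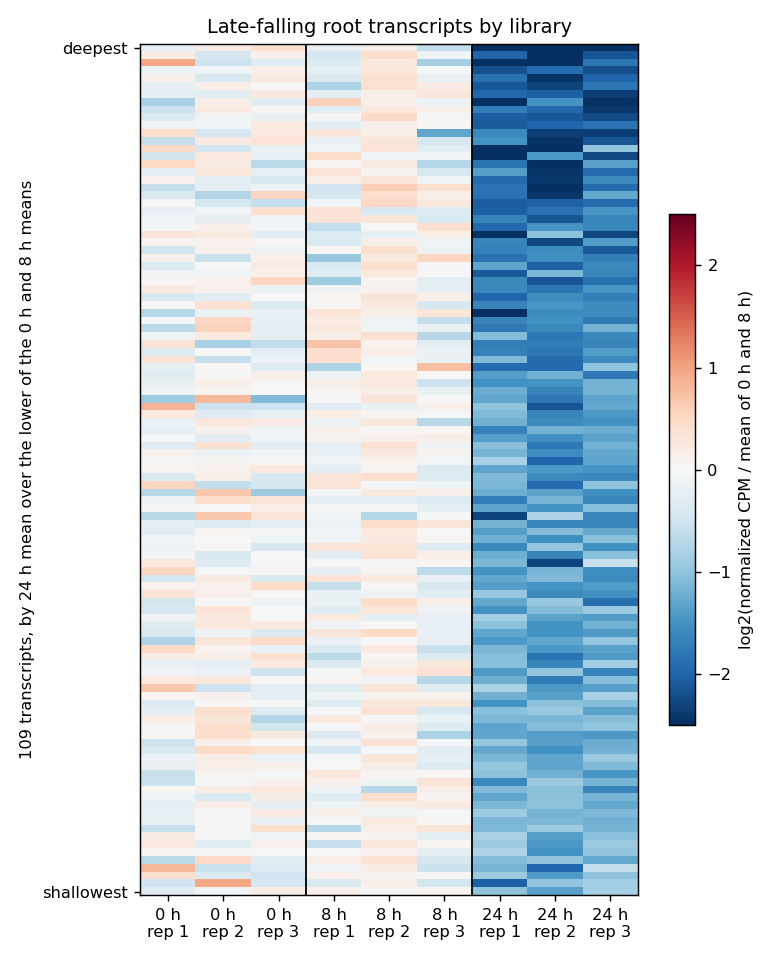
All 109 members (rows, deepest fall at the top) in the 9 root libraries (columns), as log2 of normalized CPM over the member's own mean at 0 h and 8 h; blue is lower and red higher, with the colour scale ending at 2.5 in either direction. The 24 h columns are blue in every row, as the rule required, while within the 0 h and 8 h columns single libraries depart in different directions from row to row.

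The most abundant member was R_Transcript_21530.p1. It had 427, 449 and 497 normalized CPM at 0 h, 357, 431 and 327 at 8 h, and 166, 154 and 149 at 24 h. Its 24 h libraries lay close together, and its 8 h mean was 0.812 times the 0 h mean. The log2 fold change was -1.55 (SE 0.13) for 24 h against 0 h and -1.25 (SE 0.13) for 24 h against 8 h in edgeR's quasi-likelihood fit of all tested root transcripts, the source of all log2 fold changes given below.

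R_Transcript_20274.p1 had 229, 298 and 318 normalized CPM at 0 h, 249, 535 and 460 at 8 h, and 96.6, 61.1 and 91.3 at 24 h. Its level was thus highest at 8 h, at 1.47 times the 0 h mean, with 1 of the 8 h libraries inside the 0 h range. The log2 fold change was -1.76 (SE 0.26) for 24 h against 0 h and -2.31 (SE 0.26) for 24 h against 8 h. R_Transcript_20270.p1, whose ID number is close by, had 180, 234 and 207 normalized CPM at 0 h, 122, 275 and 237 at 8 h, and 48.3, 42.2 and 59.7 at 24 h. In both, 8 h replicate 1 was the lowest and 8 h replicate 2 the highest of the 8 h libraries. The log2 fold changes of R_Transcript_20270.p1 were -2.05 (SE 0.25) and -2.07 (SE 0.25).

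R_Transcript_78749.p1 had 261, 329 and 288 normalized CPM at 0 h, 334, 315 and 313 at 8 h, and 94.6, 135 and 130.4 at 24 h. R_Transcript_24478.p1 had 264, 251 and 353 at 0 h, 230, 321 and 362 at 8 h, and 145, 95.2 and 163 at 24 h. The first was steady until 8 h, and the second varied by more within each time. Their log2 fold changes for 24 h against 0 h were -1.29 (SE 0.14) and -1.11 (SE 0.21).

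R_Transcript_60172.p1 had 278, 406 and 247 normalized CPM at 0 h, 320, 260 and 188 at 8 h, and 89.0, 99.0 and 83.1 at 24 h. R_Transcript_232.p1 had 172, 256 and 231 at 0 h, 162, 161 and 149 at 8 h, and 57.3, 84.7 and 60.9 at 24 h. For R_Transcript_232.p1 every 8 h library also lay below every 0 h library, with a log2 fold change of -0.48 (SE 0.17) for 8 h against 0 h that was not called. The log2 fold changes for 24 h against 0 h were -1.78 (SE 0.21) for R_Transcript_60172.p1 and -1.70 (SE 0.17) for R_Transcript_232.p1, and those for 24 h against 8 h were -1.50 (SE 0.21) and -1.22 (SE 0.17).

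The deepest fall was that of R_Transcript_215916.p1. It had 20.2, 26.4 and 31.2 normalized CPM at 0 h, 20.2, 26.1 and 15.1 at 8 h, and 3.66, 2.58 and 3.25 at 24 h. The lowest earlier value was 4.12 times the highest 24 h value, the widest such gap among the members. Its log2 fold change was -3.02 (SE 0.25) for 24 h against 0 h and -2.68 (SE 0.25) for 24 h against 8 h.

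R_Transcript_28260.p1 and R_Transcript_8996.p1 were abundant and fell to less than 0.25 times their earlier means. R_Transcript_28260.p1 had 286, 201 and 313 normalized CPM at 0 h, 206, 340 and 232 at 8 h, and 72.0, 48.2 and 65.8 at 24 h. R_Transcript_8996.p1 had 138, 90.6 and 133 at 0 h, 90.7, 164 and 113 at 8 h, and 30.6, 18.8 and 27.3 at 24 h. In both, replicate 2 was the lowest library at 0 h and 24 h and the highest at 8 h. Other members had the same order, R_Transcript_25749.p1 and R_Transcript_89278.p1 among them. The log2 fold changes of R_Transcript_28260.p1 and R_Transcript_8996.p1 for 24 h against 0 h were -2.10 (SE 0.22) and -2.23 (SE 0.24). Their 8 h means were 0.974 and 1.02 times the 0 h means.

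R_Transcript_11615.p1, R_Transcript_51749.p1 and R_Transcript_64522.p1 combined a deep fall with a wide gap. R_Transcript_11615.p1 had 86.5, 85.8 and 119 normalized CPM at 0 h, 85.8, 114 and 124 at 8 h, and 26.5, 25.0 and 20.2 at 24 h. R_Transcript_51749.p1 had 42.8, 45.03 and 51.8 at 0 h, 40.3, 57.9 and 46.6 at 8 h, and 10.3, 12.4 and 10.2 at 24 h. In each, the lowest earlier value was more than 3 times the highest 24 h value. R_Transcript_64522.p1 had 30.1, 36.4 and 34.1 at 0 h, 39.8, 53.8 and 37.3 at 8 h, and 9.24, 8.74 and 8.16 at 24 h. All its 8 h libraries lay above its 0 h libraries, and its log2 fold changes were -1.94 (SE 0.17) for 24 h against 0 h and -2.32 (SE 0.17) for 24 h against 8 h.

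R_Transcript_307120.p1 had 19.1, 37.2 and 27.7 normalized CPM at 0 h, 49.6, 36.7 and 30.5 at 8 h, and 5.14, 11.8 and 4.16 at 24 h. Its 24 h replicate 2 stood at more than 2 times either of the others. The log2 fold change for 24 h against 0 h was -2.01 (SE 0.35), the widest error among the deep falls named here.

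**Figure D3:**
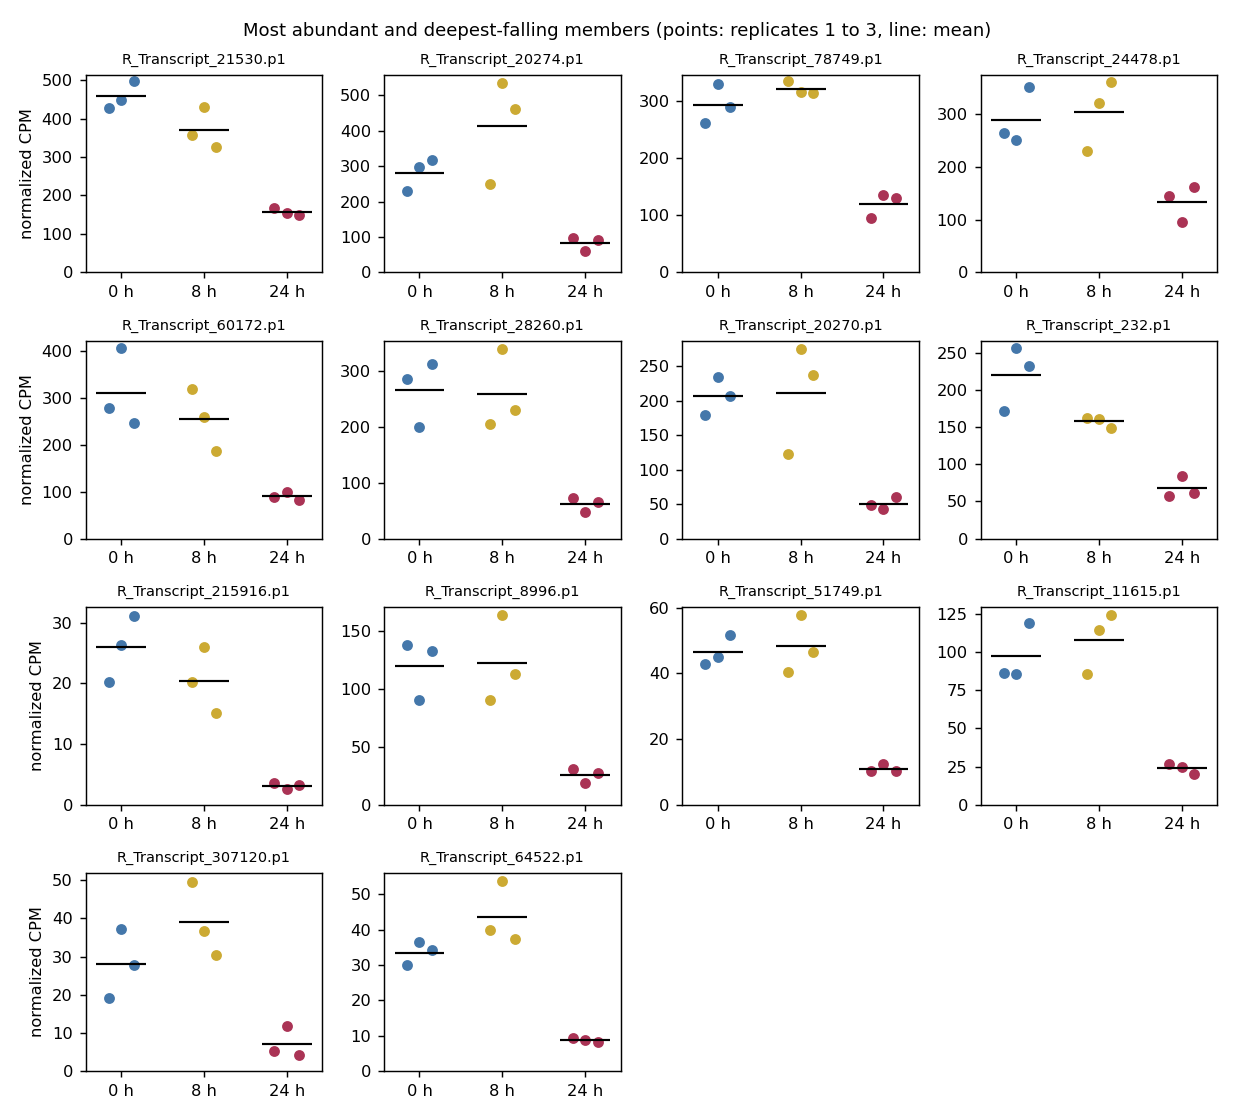
Normalized CPM (vertical axes, linear from 0) at 0 h, 8 h and 24 h of the 8 most abundant members and of the 6 further members with the deepest falls. Depth is ranked here with a pseudocount of 0.5 added to each mean, so some low-level members with a smaller plain ratio are not shown. Points are replicates 1 to 3 from left to right and lines are means. All 24 h points lie below all earlier points, as the rule required. The highest 8 h point is replicate 2 in R_Transcript_21530.p1, R_Transcript_20274.p1, R_Transcript_28260.p1, R_Transcript_20270.p1, R_Transcript_215916.p1, R_Transcript_8996.p1, R_Transcript_51749.p1 and R_Transcript_64522.p1, and another replicate in the other panels.

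Between 0 h and 8 h the members went in no common direction. The 8 h mean was above the 0 h mean in 64 members and below it in 45, with a median ratio of 1.02 and a range from 0.678 to 1.49 that the window bounds. The ratio was under 0.8 in 15 members. All 8 h values lay above all 0 h values in 6 members, where 12.2% of the transcripts at the level minimum and in the window did so. They lay below in 4 members, R_Transcript_232.p1, R_Transcript_27377.p1, R_Transcript_385436.p1 and R_Transcript_59614.p1, against 12.8% of those transcripts. These 4 were singled out after their values were seen. None was called at 8 h against 0 h. R_Transcript_385436.p1, for example, averaged 11.01 at 0 h, 7.60 at 8 h and 3.51 normalized CPM at 24 h.

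R_Transcript_47838.p1, also singled out after its values were seen, came closest to the upper edge of the window. It had 8.59, 12.5 and 12.3 normalized CPM at 0 h, 17.4, 15.4 and 17.1 at 8 h, and 2.35, 4.67 and 4.66 at 24 h. Its level was thus highest at 8 h without overlap with 0 h. In members with a higher 8 h mean than 0 h mean, the 24 h mean was a median 0.354 times the 8 h mean and 0.411 times the 0 h mean. In those with a lower 8 h mean it was 0.437 and 0.345 times. By this grouping alone the ratio to the 8 h mean is the smaller where that mean is higher, and the larger where it is lower.

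In edgeR's quasi-likelihood test over 34721 root transcripts, with Benjamini-Hochberg adjusted p under 0.05 as the call, 106 of the 109 members were called lower at 24 h than at 0 h, where 4.49% of all tested transcripts and 6.42% of those at the level minimum were. For 24 h against 8 h it was 105 members, with backgrounds of 6.11% and 8.98%. The rule used both contrasts, so these counts only describe how the rule and the test overlap, and the contrasts share the 24 h libraries. For 8 h against 0 h, 0 members were called, where 13.5% of all tested transcripts and 17.7% of those at the level minimum were called in either direction. The 8 h window limited this count by construction, and the backgrounds are not restricted to that window, so nothing is read from the contrast. At an unadjusted p under 0.05 in edgeR it was 16 members, where 26.5% of all tested transcripts were. DESeq2 called 2 members, and 4909 of 34721 transcripts. The median log2 fold change of the members was -1.41 for 24 h against 0 h and -1.41 for 24 h against 8 h, with medians of -0.01 and -0.01 over all tested transcripts.

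The members left without a call in 1 or both 24 h contrasts were 5, named here after their values were seen. R_Transcript_185482.p1 and R_Transcript_30789.p1 were called in neither contrast. R_Transcript_51516.p1 and R_Transcript_473268.p1 were called against 0 h alone, and R_Transcript_384458.p1 against 8 h alone. All averaged under 20 normalized CPM. R_Transcript_384458.p1 had 5.20, 16.8 and 4.44 normalized CPM at 0 h. R_Transcript_185482.p1 had the narrowest gap of all members, with a lowest earlier value of 9.49 and a highest 24 h value of 9.24.

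A wider list came from the tests alone: 388 transcripts were called lower at 24 h against both 0 h and 8 h and not called at 8 h. It held 104 members, which are 95.4% of the members and 26.8% of the list. Of the list, 335 met the level minimum.

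The choice could be set against libraries that it had not used. The same rule was applied to 2 replicate numbers of each time, and the 24 h value of the remaining number was compared with that number's own 0 h and 8 h values. With replicate 1 held out, 118 transcripts were chosen, of which 114 (96.6%) were lower at 24 h than at both earlier times, against 31.3% of the transcripts at the level minimum and in the window. With replicate 2 held out it was 83 of 88 (94.3%), against 29.7%. With replicate 3 held out it was 126 of 152 (82.9%), against 35.6%. In all 3 cases most of the chosen transcripts were also lower at 24 h in the libraries that the choice had not used.

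The limit of 0.5 was reached by fewer of them. The held-out 24 h value was at most 0.5 times both earlier values in 54 of 118 transcripts (45.8%) for replicate 1, in 57 of 88 (64.8%) for replicate 2 and in 57 of 152 (37.5%) for replicate 3. The corresponding shares of the transcripts at the level minimum and in the window were 0.838%, 1.10% and 0.771%. The median held-out ratio to the lower earlier value was 0.515, 0.407 and 0.575, where the choosing libraries gave medians of 0.415, 0.408 and 0.414. Lists chosen on 6 libraries were not the same as the list of 109: 92, 64 and 95 of their transcripts were members.

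**Figure D4:**
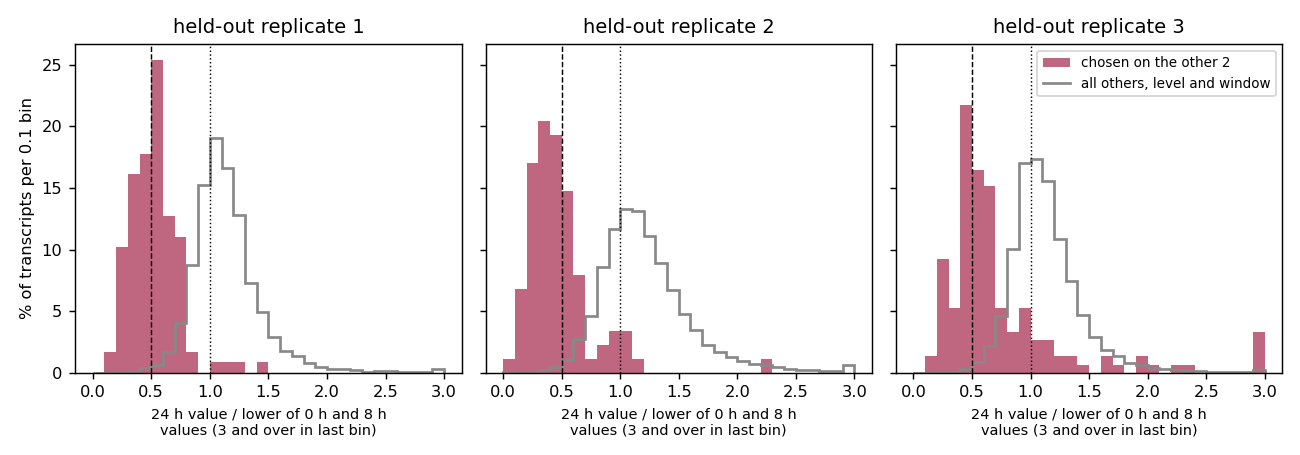
Ratio of the 24 h value to the lower of the 0 h and 8 h values in the held-out replicate number (horizontal axes, bins of 0.1, ratios of 3 and over in the last bin) for transcripts chosen on the other replicates (red) and for all others at the level minimum and in the window (grey line), as percent of each set (vertical axis). The dashed line is at 0.5 and the dotted line at 1, and most of the red area lies left of the dotted line in all 3 panels.

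The members leaned on some libraries. The rule names no replicate, but it used these same values, so the shares given here are a description. At 8 h, replicate 2 was the highest library in 68 of 109 members (62.4%), against 28.7% of the transcripts at the level minimum and in the window. It stood at a median 1.22 times the mean of the other two 8 h libraries in the members and at 0.991 times over those transcripts. Its library total, 10348307, lay between those of the others. The 8 h replicate 3 was the highest library in 16 members (14.7%, background 42.1%). At 24 h, replicate 2 was the lowest library in 56 members (51.4%, background 31.3%) and the highest in 31 (28.4%, background 45.8%). The 24 h replicate 3 was the lowest in 26 (23.9%, background 39.6%). The part of single libraries in the choice was measured by leaving them out. Without 8 h replicate 2, 91 of the 109 still had a 24 h mean at most 0.5 times both others, and without 24 h replicate 2, 92 did. Over the 9 libraries left out in turn this number ran from 91 to 106.

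Grouped by the position of 24 h replicate 2 among the 24 h libraries, 31 members had it highest, 56 lowest and 22 in the middle. By that grouping alone its ratio to the mean of the other two lies above 1 in the first group and below 1 in the second, and the medians were 1.24, 0.725 and 0.981. R_Transcript_307120.p1, R_Transcript_232.p1 and R_Transcript_47836.p1 had it highest, and R_Transcript_8996.p1, R_Transcript_28260.p1 and R_Transcript_20274.p1 had it lowest. At 0 h, replicate 2 was the highest library in 19 of the 31 and in 21 of the 56, and the lowest in 4 and 17. At 8 h it was the highest in 14 of the 31 and in 38 of the 56. No background was counted for these positions, so nothing is read from them.

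The members also differed in spread. Their median coefficient of variation (SD over mean) was 19.5% at 0 h, 20.3% at 8 h and 18.8% at 24 h, against 12.6%, 11.1% and 10.2% over the transcripts at the level minimum and in the window. The members had the higher median in each band of abundance as well: among those of at least 100 normalized CPM the members had 20.7%, 21.3% and 18.1%, and the background 10.3%, 8.26% and 9.41%. These spreads come from the same library values that chose the members, while the background was not chosen by its 24 h values. How far the choice shaped the difference in spread was not tested.

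Some members carried neighbouring ID numbers. How the numbers were given is not stated in the sources used here, and neighbours may be parts, forms or copies of 1 gene among which reads were split. Of the transcripts at the level minimum whose number was next to that of a member, 11 of 19 were members themselves (57.9%), where members made up 0.656% of all transcripts at that minimum. Within 3 numbers it was 14 of 52 (26.9%). Most members had no such neighbour: 11 of the 109 (10.1%) stood next to another member. Whether the 109 IDs stand for 109 separate genes was not tested.

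The longest run was R_Transcript_47834.p1, R_Transcript_47835.p1 and R_Transcript_47836.p1. R_Transcript_47834.p1 had 134, 182 and 96.9 normalized CPM at 0 h, 131, 152 and 107 at 8 h, and 53.8, 63.0 and 67.1 at 24 h. R_Transcript_47835.p1 had 48.3, 52.9 and 25.9 at 0 h, 51.2, 41.5 and 38.5 at 8 h, and 19.9, 19.6 and 20.5 at 24 h. The pair shared its order at 0 h, with replicate 2 highest and replicate 3 lowest, and stood at about the same fraction at 24 h. R_Transcript_47836.p1 had 19.3, 31.3 and 23.1 at 0 h, 36.3, 24.5 and 24.4 at 8 h, and 4.71, 9.83 and 5.58 at 24 h. It fell further, with a log2 fold change for 24 h against 0 h of -1.88 (SE 0.28), against -1.17 (SE 0.21) and -1.09 (SE 0.22) for the others, a difference that was not tested.

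R_Transcript_47827.p1 and R_Transcript_47838.p1 were members close to this run. Among the transcripts nearby that were not members, 2 are given here, chosen after their values were seen: R_Transcript_47828.p1 averaged 8.07 ± 2.37 at 0 h, 19.2 ± 1.52 at 8 h and 10.7 ± 2.25 normalized CPM at 24 h, and R_Transcript_47841.p1 averaged 24.6 ± 2.45, 24.9 ± 2.94 and 26.0 ± 0.942 at those times.

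R_Transcript_78748.p1 is numbered next to the abundant R_Transcript_78749.p1. It had 101, 158 and 105 normalized CPM at 0 h, 174, 158 and 119 at 8 h, and 55.6, 62.9 and 44.98 at 24 h. R_Transcript_50548.p1 had 42.5, 43.2 and 36.1 at 0 h, 37.0, 33.4 and 21.8 at 8 h, and 15.3, 10.6 and 16.99 at 24 h. Its neighbour R_Transcript_50549.p1 had 69.3, 88.4 and 73.2 at 0 h, 118, 98.1 and 79.5 at 8 h, and 27.3, 25.1 and 33.3 at 24 h. In the last pair the 8 h means moved apart, to 0.756 and 1.28 times the 0 h means, before both were low at 24 h.

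**Figure D5:**
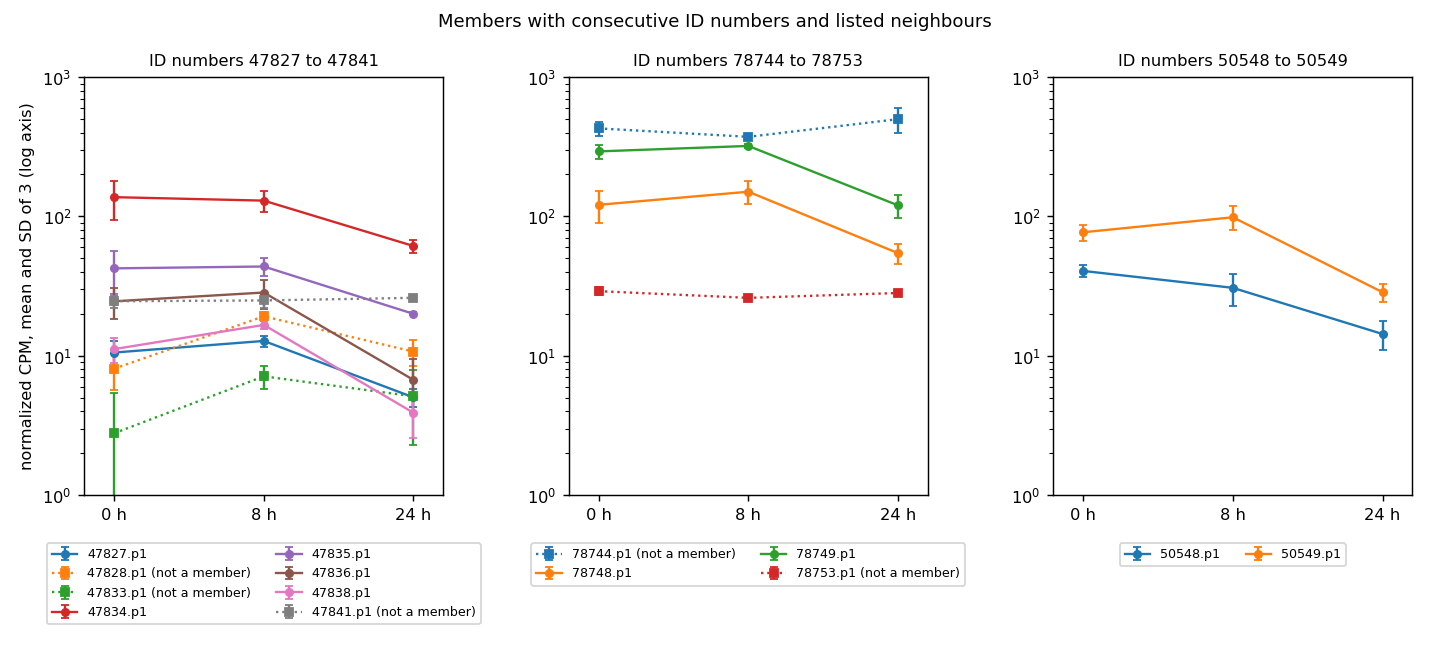
Mean and SD of 3 libraries in normalized CPM (vertical axes, logarithmic) at 0 h, 8 h and 24 h for 3 runs of members with consecutive ID numbers. They are the longest run and, among the equal runs after it, those with the highest summed level. The equal runs 20761 to 20762 and 51207 to 51208 are not shown. Other listed transcripts close in number that averaged at least 5 normalized CPM at 0 h or 8 h are drawn too. Solid lines and circles are members, dotted lines and squares are not. The members' lines drop between 8 h and 24 h, as do those of R_Transcript_47828.p1 and R_Transcript_47833.p1, which are not members; R_Transcript_78744.p1, R_Transcript_78753.p1 and R_Transcript_47841.p1 do not.

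The 8 neighbours at the level minimum that were not members had a median 24 h to lower earlier ratio of 0.973, against 1.09 over all other transcripts at that minimum. Their ratios ran from 0.532 to 1.68, and 3 were chosen for mention after their values were seen. R_Transcript_171993.p1, next to a member, averaged 9.68 ± 3.48 at 0 h, 10.3 ± 2.45 at 8 h and 5.15 ± 0.953 normalized CPM at 24 h, a ratio of 0.532. R_Transcript_8995.p1, numbered next to the deep-falling R_Transcript_8996.p1, averaged 84.0 ± 7.93, 72.8 ± 12.0 and 122 ± 8.07 normalized CPM at 0 h, 8 h and 24 h and was thus highest when its neighbour was lowest. R_Transcript_25290.p1, next to the member R_Transcript_25291.p1, averaged 171 ± 9.46, 139 ± 12.9 and 165 ± 2.05.

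Late rises in root were counted by a rule of the same form. A mirrored rule, with the same level minimum at 0 h and 8 h, the same window, and every 24 h value above the earlier ones with a mean at least 2 times both, was met by 17 transcripts, or 1.21 per 1000 at the level minimum and in the window, against 7.77 per 1000 for the falls. Transcripts that rose from under the minimum are not counted in it. The level minimum applies at 0 h and 8 h, where falls are high and rises are low, so it favours falls and the rates are not alike. Among all tested root transcripts, 1560 were called lower and 1002 higher at 24 h against 0 h. Against 8 h, 2122 were called lower and 1853 higher. In shoot the rule of the falls was met by 112 of 12490 transcripts (8.97 per 1000), against 109 of 14028 in root. Shoot and root IDs are separate sets, so it is not known whether any of these are the same genes, and these numbers were not compared by a test.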

How the data were processed

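Roots were profiled by RNA sequencing in 9 strand-keeping libraries, 3 each at 0 h, 8 h and 24 h. The authors deposited estimated counts per transcript as whole numbers, and a normalized CPM signal with no stated scaling. Each deposited signal value equals the plain CPM from the counts times 1 factor per library. Trimmomatic, kallisto 0.45 and edgeR 3.40.1 are listed, per the submitters' processing notes, with no role. For assembly, annotation and strand, details were not given in the sources used here. Columns were matched by the labels (0 were left over). Replicate pairs differed by 4.42 to 21.1 times counting noise (chi-square per degree of freedom), so none was counted as 1 sample.

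Members and levels came from the normalized signal. Estimated counts, rounded, entered edgeR 4.0.16 in R 4.3.3: filterByExpr (minimum count 10), TMM scaling, 1 quasi-likelihood fit with a mean per time, two-sided tests, and Benjamini-Hochberg adjustment over 34721 transcripts. An SE is the size of the log2 fold change over the root of its F statistic. All members passed the filter. The fit was tried on simulated counts with known changes, and the rule on a small made table with known answers. DESeq2 1.42.0 was an alternative.

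The transcripts named were the 8 most abundant members, the 8 deepest falls (pseudocount 0.5) and the 4 widest gaps among those with a 24 h mean of at least 2. Also named were the 3 longest runs of ID numbers, with ties settled by summed level, and the 3 nearest the limit on either side. All other transcripts named, those in captions included, were chosen after their values were seen. The members, lists and tests were chosen with earlier results of these data known. A count of 0 in 1 library would allow up to 3 counts, for counting error only.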

Additional observations from a re-analysis of the deposited data

How the results depend on the processing

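The number of members was 97 with library size alone as the scaling (96 shared with the 109) and 107 with DESeq2 size factors (107 shared). By construction it was 72 with a level minimum of 10, 29 with a ratio of at most 1/3 and 301 with one of at most 2/3. Leaving out single libraries gave 94 (without 0 h replicate 2) to 136 (without 24 h replicate 3), of which 87 to 103 were among the 109. The members called at 24 h numbered 84 to 109 against 0 h and 88 to 109 against 8 h over all alternatives. The fit that called 84 members (without 24 h replicate 1) called 824 of 36446 transcripts lower. The fit that called 88 (without 8 h replicate 2) called 1184 of 36588 lower. The members' median log2 fold change for 24 h against 0 h ran from -1.47 to -1.35 without single libraries. For 8 h against 0 h the 0 calls became 7 with no filter on low counts, where 6520 of 87369 transcripts were called. With a covariate chosen after seeing the data (the leading component of replicate deviations) it was 6 members, where 7149 of 34721 transcripts were called. DESeq2 called 2 members, and 4909 of 34721 transcripts. Without single libraries it was 0 to 3 members, where 3117 to 4854 transcripts were called.

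Deviations of same-numbered libraries from their time means correlated at -0.108 to 0.23. No correlations of differently numbered libraries were set beside these, so whether the replicate numbers pair the libraries was not decided. With the replicate block, 107 members were called in each 24 h contrast and 1 at 8 h. Of all 34721 tested transcripts that fit called 2769 for 24 h against 0 h, 4153 for 24 h against 8 h and 4865 for 8 h against 0 h.

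Over all root transcripts, for 24 h against 0 h 2562 calls became 4353 with no filter, 4948 with the component, and 1558, 1297 and 1501 without 0 h replicate 3, 24 h replicate 1 and 24 h replicate 3. For 24 h against 8 h, 3975 became 6104 with the component, and 2042, 2496 and 2637 without 8 h replicate 2, 24 h replicate 1 and 24 h replicate 2. For 8 h against 0 h, 4673 became 7149 with the component and 6520 with no filter. It became 3117, 3249 and 3270 without 8 h replicate 2, 8 h replicate 3 and 0 h replicate 3. Only the larger changes are listed for each contrast. For transcripts named by abundance, depth, gap, run or nearness to the limit, no log2 fold change of a 24 h contrast reversed in the alternatives run. Of 832 such comparisons, a call was lost in 23 and gained in 8. The losses were in R_Transcript_334160.p1, R_Transcript_380861.p1 and R_Transcript_47835.p1, and the gains in R_Transcript_30789.p1. The other transcripts named, and 8 h against 0 h, were not checked in this way.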
